A study of Bos indicus and Bos taurus with 17 samples.

Results

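Glycolysis was described here through 10 genes chosen by name: the glucose transporter gene SLC2A3, the hexokinase genes HK2 and HK3, PFKFB3, PFKL, ALDOA, PGK1, ENO1, LDHA and LDHB. Of these, 8 were found among the 21631 distinct gene names of the table. SLC2A3 and ENO1 were not found among the names, so no value is given for them. PFKFB3 had no entry of its own and stood in one entry together with its neighbour RBM17, a splicing factor gene, so the level of PFKFB3 and that of RBM17 cannot be told apart.

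The study compared the transcriptome of cells from milk between a local breed, Kashmiri cattle, and a dairy breed, Jersey cattle, over the course of lactation. The cells were captured from milk with magnetic beads carrying an antibody against cytokeratin 18 (KRT18), a protein of epithelial cells, and their polyadenylated RNA was sequenced. The 17 samples fell into 6 groups, formed by breed and days in milk (D15, D90 or D250). Jersey at D90 had 2 samples, and Jersey at D15, Jersey at D250 and each of the Kashmiri groups had 3. The labels give lactation 2 or 3 and name no treatment, whereas the paper states lactation 3 for all cows. By the labels, Kashmiri at D90 and Jersey at D250 were of lactation 2 alone, and the other groups held both. Lactation number was therefore not balanced between the groups. The paper describes 3 cows of each breed, each sampled on all 3 days. The lactation numbers in the labels differ between days within each breed, which the same cows followed through a lactation would not give. The labels and the paper thus differ on this point. All samples of a day were taken in the same month (March for D15, July for D90 and December for D250), so stage of lactation and season cannot be told apart. The values were FPKM, the sequenced fragments of a gene scaled to its transcript length and to all mapped fragments of the sample, with 1 pooled value for each group, so there was no spread between cows, no error and no test for any value below.

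Glycolysis turns glucose into pyruvate. Hexokinases trap glucose in the cell as glucose 6-phosphate, phosphofructokinase sets the pace of the pathway, and the later enzymes yield ATP and pyruvate, which lactate dehydrogenase can convert into lactate. Several steps have an isoform that is induced by low oxygen, growth signals or activation of immune cells, among them HK2, PFKFB3 and LDHA. In the lactating udder, epithelial cells also use glucose to make lactose, whereas neutrophils, which are common in milk, draw most of their ATP from glycolysis.

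The labelled cell type was checked against marker genes before the results. None of the 14 epithelial markers was listed at 0 in any group, and their summed level was 5983, 734 and 2668 FPKM in Kashmiri at D15, D90 and D250, and 2747, 104 and 1413 FPKM in Jersey. None of the 10 neutrophil markers found was listed at 0 either. Their summed level was 191, 514 and 641 FPKM in Kashmiri and 5098, 5939 and 14545.5 FPKM in Jersey. RNA of both kinds of cell was therefore present in every group, and the neutrophil markers differed between the breeds in the same direction as most of the glycolysis genes described below. In pooled RNA, fewer cells of a type and less RNA per cell cannot be told apart.

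The entry step of the pathway was represented by HK2 and HK3. HK2, the inducible hexokinase bound to mitochondria, was at 4.19, 5.36 and 12.6 FPKM in Kashmiri, in the order of the days, and at 23.6, 32.6 and 44.4 FPKM in Jersey. HK3, a hexokinase best known from myeloid cells, was at 8.21, 14.8 and 16.4 FPKM in Kashmiri and at 121, 78.0 and 96.9 FPKM in Jersey. For both genes the lowest Jersey group stood above the highest Kashmiri group. HK2 had the lowest level of the found genes in every group except Jersey at D250, where PFKL was lower.

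The control step was represented by PFKFB3 and PFKL. PFKFB3 makes fructose 2,6-bisphosphate, the strongest activator of phosphofructokinase, and PFKL is the liver type subunit of phosphofructokinase itself. The entry shared by PFKFB3 and RBM17 was at 34.3, 34.8 and 42.5 FPKM in Kashmiri and at 136, 148 and 345 FPKM in Jersey. PFKL was at 70.1, 33.9 and 41.9 FPKM in Kashmiri and at 98.4, 102 and 43.4 FPKM in Jersey. The PFKFB3 entry again separated the breeds, whereas the PFKL values of the breeds overlapped, with Jersey at D250 below Kashmiri at D15.

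ALDOA and PGK1 belong to the middle of the pathway. ALDOA, the aldolase that splits the six-carbon sugar, had the highest level of the found genes in every group, at 444, 589 and 632 FPKM in Kashmiri and at 1786, 2596 and 2001 FPKM in Jersey. PGK1, phosphoglycerate kinase, the first ATP-forming enzyme of the pathway, was at 80.0, 135 and 145 FPKM in Kashmiri and at 404, 754 and 831 FPKM in Jersey. Both genes were higher in every Jersey group than in every Kashmiri group. By level among all names, ALDOA ranked 216, 157 and 127 in Kashmiri and 86, 24 and 52 in Jersey.

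The lactate dehydrogenase genes behaved unlike each other. LDHA encodes the subunit that favours the making of lactate, and it was at 24.2, 134 and 124 FPKM in Kashmiri and at 242, 976 and 1002 FPKM in Jersey. LDHB encodes the subunit common in oxidative tissue, and it was at 400.1, 210.0 and 261 FPKM in Kashmiri and at 332, 357 and 389.8 FPKM in Jersey. LDHA had the widest range of the 8 genes, with its highest group 41.4 times its lowest, whereas LDHB had the narrowest, at 1.90 times. The corresponding ratio was 10.6 for HK2, 14.8 for HK3, 10.1 for the PFKFB3 entry, 3.02 for PFKL, 5.85 for ALDOA and 10.4 for PGK1.

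**Figure D1:**
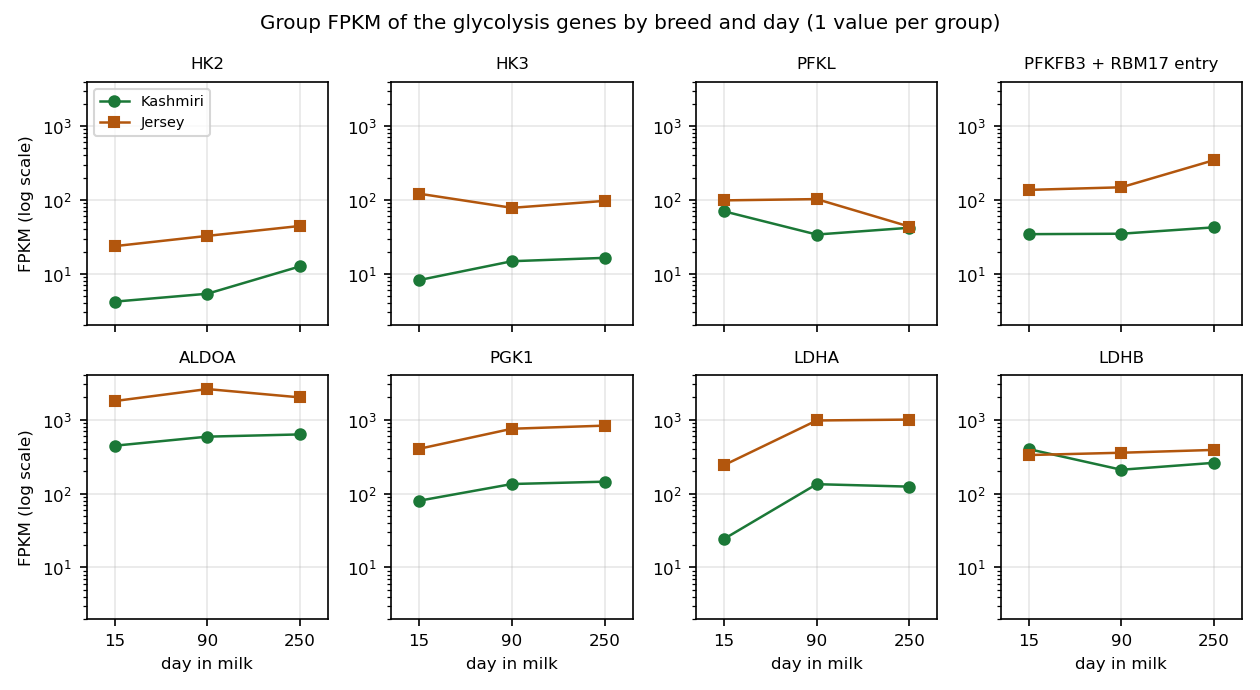
Level of the 8 glycolysis genes found, in FPKM on a log axis, against day in milk, with 1 pooled value per group (Kashmiri, circles; Jersey, squares) and no error bars. HK2, HK3, the PFKFB3 entry, ALDOA, PGK1 and LDHA lay higher in every Jersey group than in every Kashmiri group, while the values of PFKL and LDHB overlapped between the breeds.

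Together the 8 genes made up 1065, 1157 and 1275 FPKM in Kashmiri and 3143, 5043 and 4754 FPKM in Jersey. That was 0.110, 0.147 and 0.260 percent of the summed FPKM of all named genes in Kashmiri and 0.429, 0.822 and 0.584 percent in Jersey. These sums hold different milk protein genes in each group, since LALBA was listed at 0 at D15 in both breeds, CSN3 was so in 3 groups, and the genes PAEP, CSN1S1 and CSN2 had a value above 0 in Jersey at D90 alone. An exact 0 in such a table can be a failed estimate. The paper lists CSN1S1, CSN2, CSN3 and LALBA among the most highly expressed genes in every group. A 0 for them here therefore does not show absence of their RNA, and the percentages above rest on incomplete sums.

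The comparison of the breeds on the same day asked which genes stood apart between a high-yielding and a low-yielding breed. HK3 was 14.8-fold higher in Jersey at D15, 5.28-fold at D90 and 5.90-fold at D250. LDHA was 9.98-fold, 7.28-fold and 8.08-fold higher on the same days. HK2 was 5.64-fold, 6.07-fold and 3.52-fold higher. The largest ratio among the 8 genes was thus that of HK3 at D15 and that of LDHA at D90. PGK1 had a similar ratio on each day, from 5.04 at D15 to 5.74 at D250.

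The PFKFB3 entry was 3.97-fold higher in Jersey at D15, 4.25-fold at D90 and 8.13-fold at D250, where it had the largest ratio of the 8 genes. ALDOA was 4.02-fold, 4.41-fold and 3.17-fold higher. PFKL was 1.40-fold, 3.02-fold and 1.04-fold higher, with D90 the only day past 2-fold. LDHB was the exception, with a Jersey level 0.830 times that of Kashmiri at D15 and 1.70 times at D90, and with a log2 ratio of 0.58 at D250.

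Genes were counted as past 2-fold when one of the groups reached 1 FPKM and the log2 ratio, with 1 FPKM added to each value, was 1 or more in size. At D15, 6 of 8 genes were past 2-fold higher in Jersey and 0 were past it lower, against 15.9 percent of all genes higher and 13.0 percent lower. At D90 the count was 7 of 8 higher and 0 lower, against 17.0 percent and 15.9 percent, the seventh gene being PFKL. At D250 it was 6 of 8 higher and 0 lower, against 22.8 percent and 11.7 percent. The shares of the glycolysis genes higher in Jersey therefore stood far above the background on each day, for a list that was chosen with earlier results of these data known.

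A log2 ratio of at least 2 (4-fold) in favour of Jersey was reached by 5 genes at D15, 6 at D90 and 4 at D250, against 6.45, 6.58 and 10.9 percent of all genes. The median log2 ratio of the 8 genes at D15, D90 and D250 was 2.13, 2.23 and 2.11, while that of all genes tested was -0.13, -0.03 and -0.10. All 3 Jersey groups exceeded all 3 Kashmiri groups for 6 of 8 glycolysis genes and for 15.2 percent of all genes. The same 6 genes were past 2-fold higher on all 3 days, as were 7.24 percent of all genes. With the FPKM rescaled to the sum without milk protein genes 5 were, ALDOA being the exception, against 7.35 percent of all genes.

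**Figure D2:**
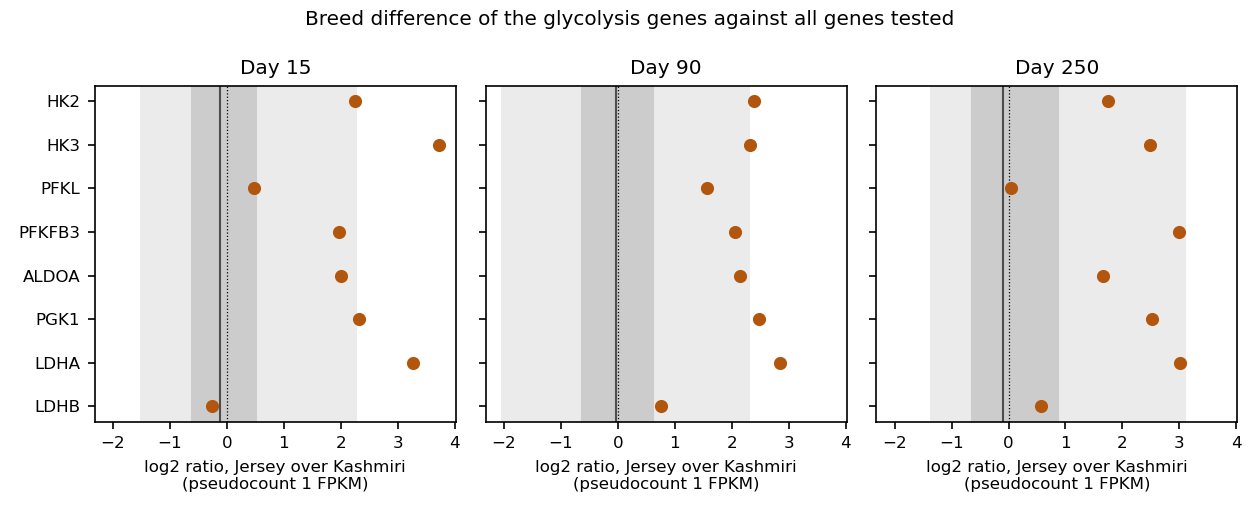
Log2 ratio of Jersey over Kashmiri at D15, D90 and D250 for the 8 glycolysis genes, with 1 FPKM added to each value. The line marks the median of all genes tested, the dark band their interquartile range and the light band their range from the 5th to the 95th percentile, and HK3 at D15 stands farthest to the right while LDHB stays under 2-fold on each day.

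FPKM values depend on the scaling between groups. When the groups were rescaled to a common upper quartile, the median log2 ratio of all genes at D250 moved from -0.10 to -0.52. When they were rescaled to the sum of all named genes without the milk protein genes, it moved to -0.74. That sum left out only what the names CSN1S1, CSN2, CSN3, LALBA and PAEP held, since CSN1S2 and LGB were not found. It left out 8174 of 969227 FPKM in Kashmiri at D15 and 13031 of 490166 FPKM in Kashmiri at D250. The setting was therefore close to the sum of all named genes. The median of the 8 glycolysis genes exceeded that of all genes by 2.22 as deposited, a gap that a rescaling can hardly move, since it multiplies every gene of a group alike. Of the genes past 2-fold at D250, 66.0 percent were higher in Jersey as deposited, 38.2 percent with the upper quartile and 27.2 percent with the sum. At D15 these shares were 55.1, 49.3 and 75.4 percent, and at D90 they were 51.6, 45.1 and 65.8 percent. Under both rescalings the same 6 genes remained higher in every Jersey group than in every Kashmiri group. Of all genes, 11.1 percent were so with the upper quartile and 11.7 percent with the sum. LDHB at D15 and D250 changed direction with the sum, and PFKL at D250 changed direction with either.

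The comparison of days within a breed asked which genes moved as lactation advanced. LDHA stood out in both breeds. In Kashmiri its log2 ratio was 2.47 from D15 to D90, -0.11 from D90 to D250 and 2.36 from D15 to D250. In Jersey the ratios were 2.01, 0.04 and 2.05. LDHA thus stood lower at D15 than on the later days, which lay within 0.11 of each other on the log2 scale. LDHA was the only one of the 8 genes past 4-fold in any comparison of days, with both later days above D15 in each breed. The background past 4-fold higher was 2.34 percent of all genes at D90 and 1.85 percent at D250 over D15 in Kashmiri, and 2.98 and 9.17 percent in Jersey. Under either rescaling described above, LDHA at D250 over D15 in Jersey was no longer past 4-fold.

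PGK1 also had its lowest level at D15 in both breeds, with a log2 ratio of D250 over D15 of 0.86 in Kashmiri and 1.04 in Jersey. HK2 had a higher level on each later day in both breeds, with log2 ratios from D15 to D250 of 1.59 in Kashmiri and 0.91 in Jersey. In Kashmiri most of that lay between D90 and D250, at 1.23, whereas in Jersey it was 0.46 from D15 to D90 and 0.45 from D90 to D250. ALDOA lay between -0.38 and 0.54 on the log2 scale over the 6 comparisons of days as deposited, the narrowest such range of the 8 genes, but with the sum it reached 1.52 for D250 over D15 in Kashmiri, where LDHB was at 0.39.

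Other genes took a different course in each breed as deposited. The PFKFB3 entry had log2 ratios of 0.02 and 0.29 over the successive intervals in Kashmiri and of 0.12 and 1.22 in Jersey. With the sum its ratio of D250 over D90 was 0.98 in Kashmiri and 0.81 in Jersey, so the breed difference turned. PFKL was lower at D90 than at D15 in Kashmiri, with a log2 ratio of -1.05, but lower at D250 than at D90 in Jersey, at -1.24. LDHB was lower at D90 than at D15 in Kashmiri, at -0.93, and differed little in Jersey, at 0.10. HK3 was higher at D90 than at D15 in Kashmiri, at 0.85, and lower in Jersey, at -0.64. Without a value for each cow, these differences between the breeds could not be tested.

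In counts, the glycolysis genes did not stand apart from the background over the days as they did between the breeds. In Kashmiri, 1 gene (LDHA) was past 2-fold higher and 1 (PFKL) lower at D90 than at D15, against 14.7 and 18.8 percent of all genes. From D90 to D250, 1 gene (HK2) was past 2-fold higher and 0 lower, against 8.95 and 8.77 percent. From D15 to D250, 2 genes (HK2 and LDHA) were past it higher and 0 lower, against 11.2 and 14.5 percent. Counts of 1 or 2 genes in 8 are too few to set apart from these backgrounds.

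In Jersey, LDHA was the 1 gene past 2-fold higher at D90 than at D15, with 0 lower, against 12.8 and 16.9 percent of all genes. From D90 to D250 the PFKFB3 entry was past 2-fold higher and PFKL lower, against 16.6 and 4.22 percent. From D15 to D250 the PFKFB3 entry, PGK1 and LDHA were past 2-fold higher and PFKL lower, against 24.5 and 17.9 percent. The median log2 ratio of the 8 genes was 0.35, 0.21 and 0.68 in Kashmiri and 0.28, 0.13 and 0.56 in Jersey for D90 over D15, D250 over D90 and D250 over D15. For all genes the medians were -0.01, 0.03 and -0.04 in Kashmiri and -0.07, 0.15 and 0.07 in Jersey. The comparisons of days share groups with each other and are not independent.

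Rescaling also moved the counts over the days. With the sum without milk protein genes, 6 of the 8 genes were past 2-fold higher at D250 than at D15 in Kashmiri, against 39.7 percent of all genes. With the upper quartile 4 were, against 16.8 percent. Of all genes past 2-fold in that comparison, 43.7 percent were higher at D250 as deposited, 64.2 percent with the upper quartile and 93.8 percent with the sum, and for D250 over D90 in Kashmiri these shares were 50.5, 59.3 and 91.4 percent. For D90 over D15 they were 43.9, 53.4 and 60.5 percent in Kashmiri and 43.1, 52.5 and 59.4 percent in Jersey. For D250 over D90 in Jersey they were 79.8, 64.8 and 51.4 percent. PGK1, LDHA and LDHB changed direction in that last comparison under both rescalings and HK3 with the sum, as did LDHA from D90 to D250 and PFKL and LDHB from D15 to D250 in Kashmiri with the sum. The higher LDHA at D90 and D250 than at D15 kept its direction in both breeds under both rescalings.

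FPKM is a value per length of transcript, so isoforms of an enzyme can be compared within a group, where the scaling has no effect. Of the summed FPKM of LDHA, LDHB and LDHC, LDHA took 5.71, 38.9 and 32.2 percent in Kashmiri at D15, D90 and D250, and 42.1, 73.2 and 72.0 percent in Jersey. LDHB took nearly all of the rest. The ratio of LDHA to LDHB was 0.0606, 0.638 and 0.476 in Kashmiri and 0.728, 2.73 and 2.57 in Jersey. LDHB was therefore the higher of the pair in every Kashmiri group and in Jersey at D15, and LDHA was the higher in Jersey at D90 and D250.

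Of the summed FPKM of HK1, HK2, HK3 and HKDC1, HK3 took 35.4, 35.9 and 32.5 percent in Kashmiri at D15, D90 and D250, and 69.1, 50.1 and 57.6 percent in Jersey. HK2 took 18.0, 13.0 and 24.9 percent in Kashmiri and 13.5, 20.9 and 26.4 percent in Jersey. HK1, the widely expressed form, took 46.6, 51.0 and 42.2 percent in Kashmiri and 17.4, 28.9 and 15.9 percent in Jersey. HK3 was thus the highest of these genes in every Jersey group and HK1 in every Kashmiri group.

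The ratio of HK3 to HK2 was 1.96, 2.76 and 1.30 in Kashmiri and 5.13, 2.40 and 2.18 in Jersey, so HK3 was the higher of this pair in every group. ALDOA took 60.5, 90.8 and 79.7 percent of the aldolases in Kashmiri and 93.7, 96.8 and 96.2 percent in Jersey. The remainder was almost wholly ALDOC, the form known from brain, with 39.3 percent in Kashmiri at D15. PFKL took 79.4, 48.7 and 70.4 percent of the phosphofructokinases in Kashmiri and 74.3, 85.9 and 80.3 percent in Jersey. In Kashmiri at D90 the platelet type PFKP was slightly the higher, with 49.8 percent.

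The entry of PFKFB3 and RBM17 made up 40.3, 87.3 and 77.1 percent of the summed PFKFB genes in Kashmiri and 88.1, 92.2 and 88.6 percent in Jersey. In Kashmiri at D15 PFKFB4, another member of the family, took 55.5 percent. For enolase no share is given, since ENO1 was not found, and PGK1 stood alone because PGK2 was not found.

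**Figure D3:**
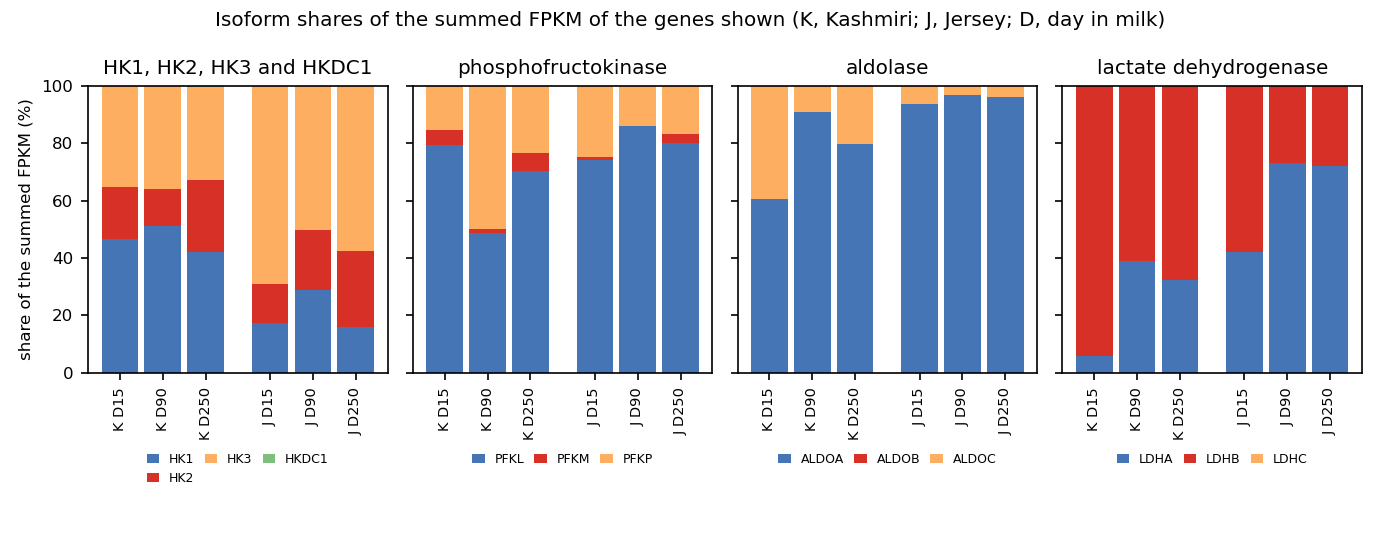
Share of each isoform, in percent of the summed FPKM of the genes shown for its enzyme, in the 6 groups of breed and day, with 1 pooled value per group. HK3 takes 69.1, 50.1 and 57.6 percent of the summed HK1, HK2, HK3 and HKDC1 in Jersey at D15, D90 and D250, and LDHA takes 73.2 and 72.0 percent of lactate dehydrogenase in Jersey at D90 and D250.

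The rest of the pathway was read from a wider list of 41 genes, of which 38 were found (PGK2, BPGM and SLC2A5 were not). At D15, 11 of the 27 genes tested were past 2-fold higher in Jersey and 8 lower, against 15.9 and 13.0 percent of all genes. At D90 the counts were 10 higher and 5 lower of 26, against 17.0 and 15.9 percent, and at D250 they were 8 higher and 3 lower of 27, against 22.8 and 11.7 percent. The median log2 ratio of the list was -0.20, 0.26 and 0.31. The wider list was split in direction between the breeds, and the split depended on the scaling. At D250 the counts became 7 higher and 9 lower with the upper quartile, against 16.5 and 26.7 percent of all genes, with a median of -0.17. With the sum they became 5 and 10, against 13.9 and 37.2 percent, with a median of -0.42. At D15 they became 11 and 2 with the sum, against 21.0 and 6.88 percent, with a median of 0.37.

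Log2 ratios of single genes of this list are given with 1 FPKM added to each value. Within the list, the enzymes that lie between the steps named so far were higher in Jersey. GPI, which converts glucose 6-phosphate to fructose 6-phosphate, had log2 ratios of Jersey over Kashmiri of 2.27, 2.12 and 1.21 at D15, D90 and D250. TPI1, triosephosphate isomerase, had 2.32 and 1.95 at D15 and D90 and was at 131 FPKM in Kashmiri and 374 FPKM in Jersey at D250. PGAM1, phosphoglycerate mutase, had 1.73, 1.94 and 1.67, and PKM, the pyruvate kinase that ends the pathway, had 2.54, 1.71 and 2.17. These 4 genes were past 2-fold higher on all 3 days, and TPI1, PGAM1 and PKM also with the upper quartile, but only PKM with the sum. Over all genes the share so was 7.24 percent as deposited, 5.87 percent with the upper quartile and 7.35 percent with the sum.

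GAPDH, which acts between TPI1 and PGK1, was listed at 0 in 4 of the 6 groups and at no more than 0.0328 FPKM in the others. It is a gene that nearly every cell uses, so no level is drawn from it.

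Several transporters at both ends of the pathway differed between the breeds as well. SLC2A1, the common glucose transporter, was at 36.0, 17.9 and 24.6 FPKM in Kashmiri and at 41.0, 81.7 and 111 FPKM in Jersey, with log2 ratios of 0.18, 2.13 and 2.13. SLC2A6, a transporter of the same family found in leukocytes, was at 1.69, 2.45 and 1.55 FPKM in Kashmiri and at 24.8, 89.7 and 64.2 FPKM in Jersey. SLC16A3, the carrier through which glycolytic cells release lactate, was at 5.29, 14.2 and 14.9 FPKM in Kashmiri and at 108, 194 and 329 FPKM in Jersey. SLC2A6 and SLC16A3 were past 2-fold higher in Jersey on all 3 days as deposited and under both rescalings. Of the 38 genes of the wider list found, 6 were so as deposited, 5 with the upper quartile and 3 with the sum. Over all genes these shares were 7.24, 5.87 and 7.35 percent. With the sum the wider list, at 7.89 percent, was thus near the share of all genes. Others did not share the direction of SLC2A6 and SLC16A3. SLC16A1, the widely expressed lactate carrier, had log2 ratios of Jersey over Kashmiri of -1.31, 0.64 and 0.41 at D15, D90 and D250, the first of them past 2-fold. SLC2A8, a glucose transporter of inner membranes, had log2 ratios of 0.50, -0.01 and -0.94.

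The 8 genes of the entry of pyruvate into mitochondria were mixed in direction. At D15, 2 were past 2-fold higher in Jersey and 3 lower, against 15.9 and 13.0 percent of all genes. At D90 the counts were 1 and 2, against 17.0 and 15.9 percent, and at D250 they were 0 and 2, against 22.8 and 11.7 percent. MPC2, a subunit of the mitochondrial pyruvate carrier, had log2 ratios of -1.72, -1.32 and -1.75, and its partner MPC1 had -1.20, -0.34 and -0.73. PFKM, the muscle type phosphofructokinase, had -1.22, -0.64 and -0.90. MPC2 was past 2-fold lower on all 3 days, as were 3.14 percent of all genes, but not so with the sum.

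**Figure D4:**
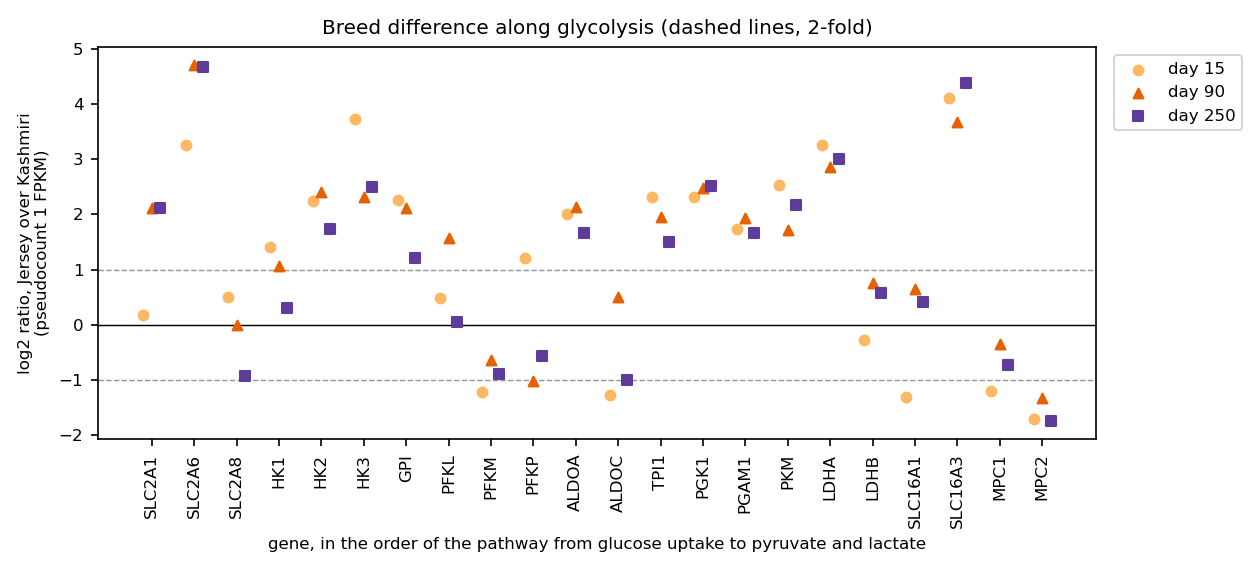
Log2 ratio of Jersey over Kashmiri, with 1 FPKM added to each value, for genes in the order of the pathway from glucose uptake to pyruvate and lactate, at D15, D90 and D250. HK2, HK3, GPI, ALDOA, TPI1, PGK1, PGAM1, PKM, LDHA, SLC2A6 and SLC16A3 lie above the 2-fold line on each day, and MPC2 lies below the lower one.

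Over the days within a breed, the wider list had 7 genes past 2-fold higher and 8 lower of 28 from D15 to D90 in Kashmiri, against 14.7 and 18.8 percent of all genes. It had 7 and 2 of 27 from D90 to D250, against 8.95 and 8.77 percent, and 6 and 3 of 28 from D15 to D250, against 11.2 and 14.5 percent. In Jersey the counts over the same intervals were 4 and 4 of 25, against 12.8 and 16.9 percent, 4 and 1 of 27, against 16.6 and 4.22 percent, and 8 and 2 of 27, against 24.5 and 17.9 percent. These splits moved with the scaling, most of all for D250 over D90 in Jersey, with 4 and 4 under the upper quartile and 3 and 6 under the sum. With the sum, Kashmiri had 11 and 1 for D250 over D15, 13 and 1 for D250 over D90, and 10 and 8 for D90 over D15, and Jersey had 7 and 4 for D90 over D15. PGAM1 was higher at D250 than at D15 in both breeds, with 1.14 and 1.08, and SLC16A3 was so too, with 1.34 and 1.59. SLC2A1 went opposite ways between D15 and D90, with -0.97 in Kashmiri and 0.98 in Jersey.

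Markers of cell types differed between the breeds too, but not all in the same direction. All 10 neutrophil markers found (CXCR2 and FPR1 were not) were past 4-fold higher in Jersey on each day, against 6.45, 6.58 and 10.9 percent of all genes. Their median log2 ratios were 3.58, 3.57 and 4.79. Among them, CSF3R and PADI4 each shared an entry with another gene. Of the 10 macrophage markers, none was listed at 0, 9 reached 1 FPKM in a group of each comparison, and these had median log2 ratios of 3.77, 1.93 and 0.10. The summed level of all 10 ranged from 109 to 491 FPKM in Kashmiri and from 1014 to 2145 FPKM in Jersey. The 14 epithelial markers had median log2 ratios of -0.83, -1.94 and -1.34. The part of these cells in the higher HK2, HK3, PFKFB3, ALDOA, PGK1 and LDHA of Jersey was not tested.

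Markers of lymphocytes did not follow those of neutrophils. The summed level of 8 T and NK cell markers was 319.6, 1326 and 301 FPKM in Kashmiri and 219, 148 and 80.0 FPKM in Jersey. That of 5 B cell markers was 12.8, 67.0 and 26.9 FPKM in Kashmiri and 22.8, 10.8 and 6.65 FPKM in Jersey, and the red cell markers found summed to under 1 FPKM in every group. KRT18, the protein used for capture, was at 51.3, 9.13 and 11.5 FPKM in Kashmiri and at 33.7, 1.59 and 4.51 FPKM in Jersey. The paper checked purity at D90 by qPCR and found KRT18 and CSN2 higher, and LSP1, HBA and CD18 lower, in captured cells than in all milk cells. No group here was of all milk cells, so the levels that follow cannot be set against that check. LSP1 was at 139, 254 and 68.6 FPKM in Kashmiri and at 334, 170 and 149 FPKM in Jersey. ITGB2, the gene of CD18, was at 46.5, 153 and 64.1 FPKM and at 152, 179 and 164 FPKM. Along the days, the epithelial sum was lowest at D90 in both breeds. LDHA was lowest at D15, where the neutrophil and macrophage sums of each breed were lowest too. From D15 on, the neutrophil sum in Jersey was 5098, 5939 and 14545.5 FPKM and the macrophage sum 1014, 2145 and 1852 FPKM. CD68 alone held 169, 1211 and 996 FPKM of that macrophage sum, and the macrophage markers of Jersey did not move together. At D250 over D15, 2 of the 9 tested were past 2-fold higher and 3 lower. The shares of all genes were 24.5 and 17.9 percent. LDHA in Jersey was at 242, 976 and 1002 FPKM. The part of either cell type in the level of LDHA was not tested.

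**Figure D5:**
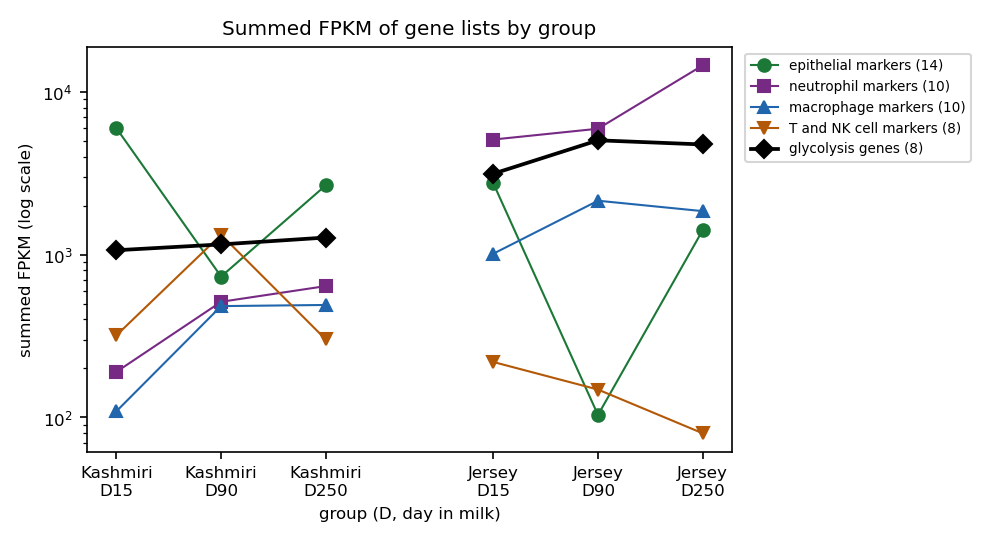
Summed FPKM of the marker genes of each cell type, on a log axis, in the 6 groups of breed and day, with 1 pooled value per group. The neutrophil sum is 191 to 641 FPKM in Kashmiri and 5098 to 14545.5 FPKM in Jersey, and the epithelial sum is lowest at D90 in both breeds.

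The genes whose pattern over the 6 groups was most like that of each glycolysis gene were sought among 4550 genes with a mean of at least 10 FPKM and no group at 0. Likeness was the largest absolute difference of the centred log2 levels over the groups, so that a small value means a close match. The nearest genes to HK3 were RAB32 and ALOX5AP, both at 0.23, and ALDH3B1, at 0.42. Those nearest to HK2 were SYK at 0.40, ASRGL1 at 0.43 and GSR at 0.44. Those nearest to LDHA were CCL16 at 0.43, EGR2 at 0.48 and SGK1 at 0.50. HK2, HK3 and LDHA had 7, 8 and 9 genes within 0.58. Such numbers were not counted for all genes searched, so they have no background.

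For ALDOA the nearest were HPCAL1 at 0.22, PTPN6 at 0.27 and PLBD2 at 0.31, and for PGK1 they were PTPN9 at 0.37, EGR3 at 0.39 and ADAP1 at 0.40. For the PFKFB3 entry they were RARA at 0.27, C3orf38 at 0.28 and RHBDF2 at 0.31, and for PFKL they were AKR1A1 at 0.30, TXNDC17 at 0.31 and SLC25A20 at 0.35. LDHB had 303 genes within 0.58, the nearest being the joined entry of TICAM2 and TMED7 at 0.06, followed by HNRNPA2B1 and NABP2. Among the glycolysis genes themselves, the PFKFB3 entry and PGK1 were nearest at 0.66, HK2 and PGK1 followed at 0.69 and HK2 and ALDOA at 0.71. LDHA and LDHB were farthest apart, at 3.48.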

How the data were processed

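Reads were trimmed by the authors (Trimmomatic), mapped with Bowtie2 and TopHat to the UMD3.1 build of the cattle genome, and turned into gene levels by Cufflinks and Cuffdiff. The deposited values are the authors' FPKM, 1 pooled value for each of 6 groups. Depth per sample and the spread between cows cannot be read from them, so no interval, p-value or test is given. The table calls Kashmiri cattle local and was read so.

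The table holds 61264 entries, 25121 of them named. Where entries shared a name, that of the highest mean was kept, and joined names were looked up by each part. Folds and log2 ratios of single members are plain ratios. Log2 ratios of other single genes, counts and medians, computed from the deposited FPKM, added 1 FPKM, and counts and medians kept genes with at least 1 FPKM in either group. The 9 comparisons were later over earlier day within a breed and Jersey over Kashmiri on each day. The genes named are all members, genes of the wider glycolysis, pentose phosphate, glycogen and regulator lists, and the 3 genes nearest in pattern to each member. Cell type markers are given by sums and counts, with values of a few single markers. 1 listed gene is not reported here and entered no list or share. Members and lists were chosen with earlier results of these data known.

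The alternatives were 2 rescalings, a pseudocount of 0.1 FPKM, no filter and the sum of all entries of a name. The code was tested on simulated data. The software was matplotlib 3.10.9, pandas 2.3.3, numpy 2.4.6 and Python 3.11.15. Sequences and gene positions are not given, since no genome of the authors' build was used here.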

Additional observations from a re-analysis of the deposited data

Results flagged for a closer look

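HK3, the hexokinase best known from myeloid cells, went opposite ways between D15 and D90 in the breeds. Its log2 ratio of D90 over D15 was 0.85 in Kashmiri (8.21 to 14.8 FPKM) and -0.64 in Jersey (121 to 78.0 FPKM), a difference of -1.48. This result drew attention because each breed moved by at least 0.58 in a different direction. With the upper quartile the ratios were 1.02 and -0.48, and with the sum 1.16 and -0.37, so that under both rescalings the Jersey ratio kept its direction but was smaller than 0.58 in size. Over the same interval, as deposited, 7.53 percent of 12079 genes did so. With 1 pooled value per group the difference was not tested. Over that interval the summed neutrophil markers went from 191 to 514 FPKM in Kashmiri and from 5098 to 5939 FPKM in Jersey, and the summed macrophage markers from 109 to 483 FPKM and from 1014 to 2145 FPKM. In Jersey the macrophage markers did not move together, since CD68 went from 169 to 1211 FPKM while C1QA went from 145 to 60.3, C1QB from 98.2 to 55.9 and C1QC from 144 to 42.9 FPKM. Their part in the result was not tested.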

How the results depend on the processing

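Adding 0.1 FPKM in place of 1, dropping the filter on low values and summing all entries of a name left the counts, medians and single ratios of the 8 genes and the counts of the wider list within 1.5-fold, and summing entries moved the isoform shares of the 8 genes by less than 5 percentage points. Single ratios of other genes were not recomputed under these settings. Rescaling to a common upper quartile moved the count of the 8 genes past 2-fold from 2 to 1 for D90 over D15 and from 2 to 4 for D250 over D15 in Kashmiri, from 1 to 2 for D90 over D15 and from 2 to 1 for D250 over D90 in Jersey, and the count past 4-fold from 1 to 0 for D250 over D15 in Jersey. It moved the wider list from 5 to 8 genes past 2-fold for D250 over D90 in Jersey. Rescaling to the sum without milk protein genes moved the count past 2-fold to 2 for D250 over D90 and to 6 for D250 over D15 in Kashmiri, to 2 for D90 over D15 and to 1 for D250 over D90 in Jersey. With it, the count past 4-fold became 2 for D250 over D15 in Kashmiri, 0 for D250 over D15 in Jersey and 2 for Jersey over Kashmiri at D250. The median log2 ratio in Kashmiri became 0.88 between D90 and D250 and 1.68 between D15 and D250, and it became 1.38 for Jersey over Kashmiri at D250, and the wider list went from 9 to 14 genes past 2-fold between D90 and D250 in Kashmiri and from 5 to 9 in Jersey. The breed difference in the D250 over D15 log2 ratio of the PFKFB3 entry reversed from 1.03 to -0.13 with the sum, and that in its D250 over D90 ratio turned from 0.94 to -0.17. A rescaling multiplies every gene of a group alike, so it moves all ratios of a comparison by one amount. The shares of all genes past 2-fold moved as well. For D250 over D15 in Kashmiri, 11.2 percent of all genes were higher as deposited and 39.7 percent with the sum. Leaving out single samples was not possible with 1 pooled value per group. No paired analysis was possible because the table holds no value per sample. The missing depth and spread limit every value above.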

Other observations

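Among 8 of 10 listed regulators of glycolysis that were found, HIF1A, the oxygen-regulated subunit of the transcription factor that induces LDHA, PGK1 and PFKFB3, was at 9.72, 18.6 and 35.6 FPKM in Kashmiri at D15, D90 and D250 and at 20.3, 159 and 328 FPKM in Jersey. Its log2 ratio of Jersey over Kashmiri, with 1 FPKM added to each value here and below, was 0.99, 3.03 and 3.17. EGLN3, a prolyl hydroxylase that marks HIF1A for breakdown and is itself a HIF1A target, had ratios of 1.12, 1.73 and 3.65, and MLXIP, a glucose-sensing transcription factor, had 1.70, 1.91 and 3.37. MYC had 0.12, -0.91 and -0.18. ARNT, the partner of HIF1A, shared its entry with CTSK and CTSS, so its level cannot be told apart from theirs. EPAS1, the sister gene of HIF1A, went the other way, with -0.65, -1.46 and -0.37. Over the list, 3 of 7 genes tested were past 2-fold higher in Jersey and 0 lower at D15, against 15.9 and 13.0 percent of all genes. At D90 the counts were 4 and 1 (EPAS1), against 17.0 and 15.9 percent, and at D250 they were 4 and 0, against 22.8 and 11.7 percent. The count of higher genes on each day includes the entry that ARNT shares with CTSK and CTSS.

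Neighbouring routes for glucose were counted in the same way, against the same shares of all genes, and several of their counts lie near those shares. Of 7 pentose phosphate genes found, 0 were past 2-fold in either direction at D15, 2 (PGD at a log2 ratio of 1.42 and TALDO1 at 1.02) were higher in Jersey at D90, and 1 (PGLS) was lower at D250. Of the glycogen genes, 1 of 9 tested was past 2-fold higher and 1 lower at D15, 3 and 1 of 9 at D90, and 4 and 0 of 10 at D250. GYS1, the muscle type glycogen synthase, was past 2-fold higher on all 3 days, with 1.84, 1.84 and 1.89, as were 7.24 percent of all genes. UGP2, which makes UDP-glucose for glycogen and lactose alike, had -1.74, 0.86 and 1.43. The difference between these lists and the glycolysis genes was not tested.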
